A study of Mus musculus with 16 samples.

Results

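The SR and hnRNP genes encode the largest families of RNA-binding proteins that choose splice sites. They were taken from the count table by symbol: every mouse gene whose symbol starts with Srsf and a digit or with Hnrnp, plus Tra2a and Tra2b. Symbols of pseudogenes were dropped, which removed 2, and a mean of at least 10 counts over the 8 input libraries was required, which removed none. This gave 33 genes of the 46983 listed, 13 of them SR or Tra2 genes and 20 of them hnRNP genes. The rule used no measured difference between groups, but the genes were chosen with earlier results of these data known. Of the 33, 32 reached 1 CPM, a count scaled to library size, in 10 or more of the 16 libraries and were tested among 12805 genes, 12 of them SR or Tra2 and 20 hnRNP. The exception was Srsf12, with 6 to 16 counts per input library.

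RNA was sequenced from 46C ESCs, a mouse line of strain 129Ola that carries GFP at Sox1, cultured on gelatin in medium with LIF. Cells of both arms were transfected for 48 hr, with RAM siRNA or with a non-targeting control siRNA, each at 70 pM in the labels. RAM activates RNMT, the enzyme that methylates the mRNA cap. All cells were treated with cycloheximide before lysis. From each culture, 10% of the cytoplasmic lysate was kept as input and the pooled sucrose gradient fractions 17 to 22 were taken as polysomes. The 4 groups (control and RAM siRNA, input and polysomes) had 4 libraries each, from transfections on separate occasions. All data came from 1 line, and the study's legend names 1 RAM siRNA, so these libraries cannot tell apart effects of RAM loss and effects particular to that siRNA.

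SR proteins carry RNA-recognition motifs and a domain rich in arginine and serine, and they bind exonic enhancers to promote inclusion of exons. Most hnRNP proteins bind nascent RNA elsewhere and often have the opposite effect, and many of them also act in RNA export, stability or translation. Genes of both families are known to hold levels of their own protein steady through exons whose inclusion or skipping brings in a premature stop codon, so that the message is removed by nonsense-mediated decay. In GENCODE vM21, 11 of the 12 SR and Tra2 genes tested (91.7%) had at least 1 transcript annotated as a target of nonsense-mediated decay. This held for 10 of the 20 hnRNP genes (50%) and for 28.5% of the 12123 protein-coding genes tested.

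Ramac, which encodes RAM, had 197 to 206 counts in each control input library and 46 to 58 with RAM siRNA. Its log2 fold change in input was -1.84, with a standard error (SE) of 0.11, and the quasi-likelihood test of edgeR gave an adjusted p of 7.2e-06. Libraries held between 16647523 and 20147833 counts. Every pair of libraries within a group differed beyond counting error, the chi-square per gene being 5.09 to 34.7 in input and 24.3 to 334.5 in polysomes. Replicate 2 of the RAM siRNA polysomes stood apart most. It differed from replicates 3 and 4 by a root mean square of 0.86 and 0.97 on the log2 scale, and the other pairs of polysome libraries of one siRNA differed by 0.29 to 0.60. In input, the 3 pairs with the largest chi-square per gene were those that held replicate 4 of RAM siRNA. Libraries with the same replicate number deviated together (mean r = 0.499 in input and 0.777 in polysomes, across 12805 genes). The main fits leave the replicate number out. Fits that include it (called the replicate block) are printed where they change a call. ESC markers were high in control input, with 421 to 532 CPM for Pou5f1. Of 7 feeder fibroblast markers, Col3a1, Dcn and Lum were at 0 in all 4 control input libraries, while Thy1 had 120 to 166 counts and Pdgfrb 70 to 91. Of 6 neural markers Neurog2 was at 0 there and the other 5 were detected, with 450 to 780 counts for Tubb3, 413 to 665 for Nes and 185 to 258 for Pax6.

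In control input the 33 genes together took 0.805% to 0.932% of all counts. Levels between genes are compared as RPKM, the TMM-scaled CPM divided by the summed length of all annotated exons of the gene. On this scale Srsf5, an SR protein of the nuclear speckles, stood at 173 ± 6.09 (SD, n = 4 control input libraries) and Hnrnpa1, a shuttling splicing repressor, at 170.1 ± 15.5. Hnrnpab followed at 161 ± 10.1 and Srsf2 at 158 ± 10.2. The ranges of Srsf5 (165 to 180.1), Hnrnpa1 (155 to 192), Hnrnpab (153 to 175) and Srsf2 (145 to 169) all overlapped one another. At the other end Hnrnpr, with an annotated exon length of 22199 bases, stood at 3.77 ± 0.19, Hnrnpll at 5.82 ± 0.40 and Srsf12 at 0.198 ± 0.0669. The long annotated 3′ UTR of Hnrnpr enters its length, and the part of it that these cells use was not measured.

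The spread of a gene between the 4 libraries of a group was small in input. The SD was 3.13% to 12.4% of the mean in control input (median 6.01% over the 32 genes) and 2.1% to 17.0% in RAM siRNA input (median 7.03%). It was wider in polysomes, with a median of 10.2% in control and 15.0% in RAM siRNA cells. Hnrnpu, the scaffold attachment factor that binds chromatin-associated RNA, was the most variable there, with an SD of 27.9% and 56.6% of its mean.

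After RAM siRNA, Hnrnpul1 was the single SR or hnRNP gene past the threshold in input without a block. Hnrnpul1 encodes a relative of the hnRNP U protein and lies on the minus strand of chr7:25721165-25754757 (GRCm38). Its level was 103, 99.7, 97.5 and 106 TMM-scaled CPM in the 4 control libraries and 68.7, 72.6, 74.2 and 69.8 in the RAM siRNA libraries. The groups did not overlap, and every RAM siRNA library was lower than every control library. The mean was 70.2% of control. This was a log2 fold change of -0.51 (SE 0.06), and the edgeR test gave an adjusted p of 4.8e-04, corrected over 12805 genes by the Benjamini-Hochberg method. Over 25 other settings, it stayed past the threshold and between -0.55 and -0.48.

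Thus 1 of 32 genes (3.12%) was called lower and 0 were called higher, beside 5.94% of all genes tested called lower and 6.95% called higher. At an unadjusted p under 0.05 from the same test, 5 of the 32 (15.6%) and 28% of all genes passed. DESeq2 called 4, with 2 lower and 2 higher, beside 7.11% and 8.33% of all genes. Without RAM siRNA input replicate 4, edgeR called 6, with 3 lower and 3 higher, beside 8.97% and 10.6% of all genes. The 4 and 4 libraries did not overlap for 1 of the 32 in the lower direction, which was Hnrnpul1, beside 8.62% of all genes, and for 1 in the higher direction, Srsf6, beside 9.39%. The median log2 fold change was -0.01 over the 32 genes and 0.0007 over all genes tested, 0.09 over the SR and Tra2 genes and -0.08 over the hnRNP genes.

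With the replicate block, 14 of the 32 genes (43.8%) were called in input, 6 lower and 8 higher. The block called 19% of all genes lower and 20.3% higher, so neither share stood far from that of all genes. The 6 lower genes were all hnRNP genes: Hnrnpul1, Hnrnpab, Hnrnpf, Hnrnph2, Hnrnpa1 and Hnrnpm. The 8 higher genes were the SR genes Srsf2, Srsf5, Srsf6, Srsf7 and Srsf11, Tra2a, Hnrnph1 and Hnrnpl. No SR or Tra2 gene was called lower. The difference between the families was not tested. The calls depended on single replicates. With the block and without replicate 3, 8 genes were called lower and 1 higher, beside 15.9% and 17.2% of all genes. Without replicate 4, 5 were lower and 10 higher, beside 18.7% and 20.1%.

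**Figure D1:**
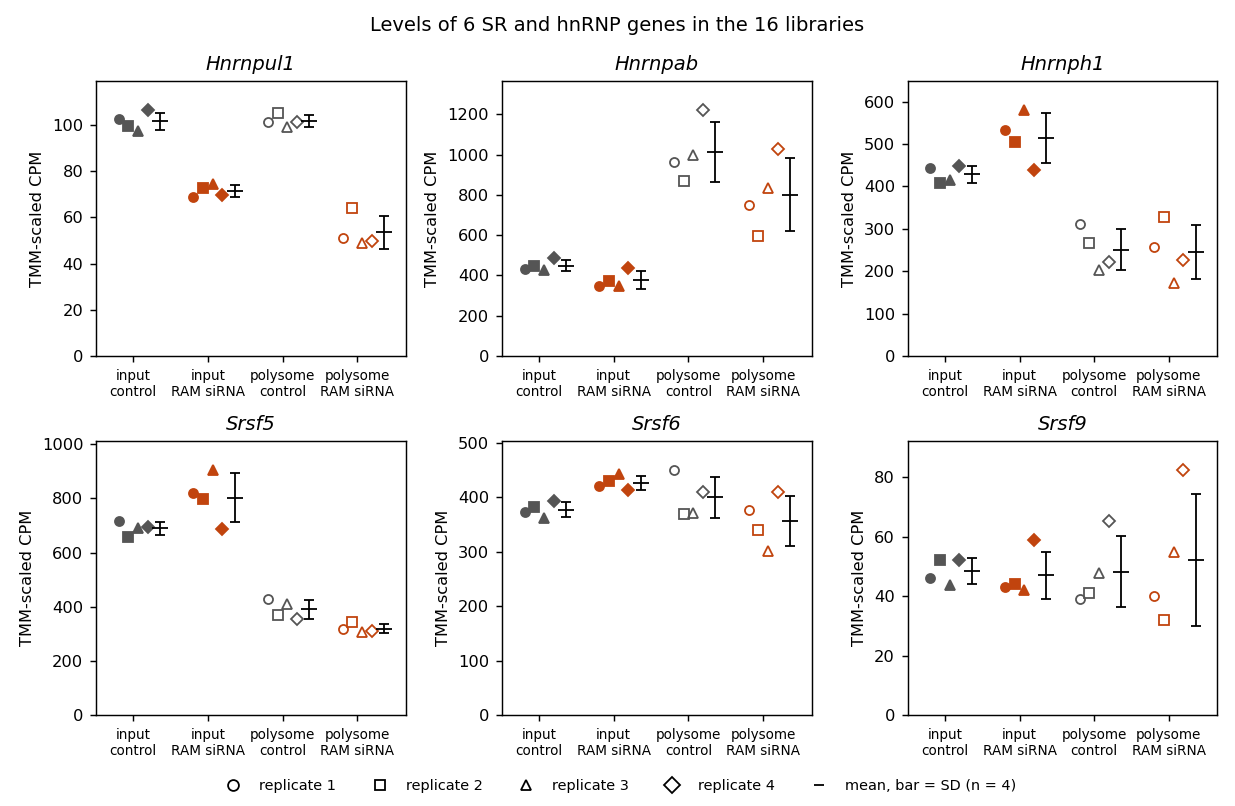
Levels of 6 SR and hnRNP genes as TMM-scaled CPM (y axis, from 0) in the 4 groups (x axis). Each point is a library, its shape gives the replicate number, and the black bar gives mean and SD. For Hnrnpul1 all RAM siRNA libraries lie below all control libraries in both fractions, and for Srsf5 the polysome levels lie below the input levels in both arms.

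Among the hnRNP genes, Hnrnpab followed Hnrnpul1 in the size of its fall. It encodes a protein related to hnRNP A and hnRNP D that binds AU-rich RNA. Its level was 431, 445, 425 and 487 CPM in control input and 346, 370.4, 346 and 439 in RAM siRNA input. Replicate 4 was the highest in both arms, and the groups overlapped only through it. Hnrnpab had a log2 fold change of -0.26 (SE 0.09, adjusted p = 0.080 without and 6.8e-05 with the replicate block).

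Hnrnpf binds runs of guanines next to splice sites and stood at 197, 186, 181 and 227 CPM in control input and at 163, 173, 162 and 216 in RAM siRNA input. The groups overlapped, but each RAM siRNA library was below the control library of the same number. For Hnrnpf the log2 fold change was -0.15 (SE 0.10, adjusted p = 0.371 without and 0.0083 with the block).

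Its paralogue Hnrnph1, which binds the same kind of sequence, moved the other way. Its level was 444, 408, 414 and 448 CPM in control input and 533, 504, 579 and 438 in RAM siRNA input. It was higher in 3 of the 4 replicate numbers, and the groups overlapped through replicate 4. Hnrnph1 had a log2 fold change of 0.26 (SE 0.09, adjusted p = 0.083 without and 0.0016 with the block). Hnrnph2 had a log2 fold change of -0.14 (adjusted p = 0.201 without and 0.034 with the block) and Hnrnph3 one of 0.07, so the F/H genes did not share a direction in input.

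Hnrnpl, which binds CA repeats, stood at 335, 364, 332 and 337 CPM in control input and at 373, 391, 393 and 358 in RAM siRNA input. It was higher in 4 of 4 replicate numbers, although control replicate 2 lay above RAM siRNA replicate 4. Its log2 fold change was 0.15 (SE 0.07, adjusted p = 0.202 without and 0.011 with the block). Hnrnpu was 166, 157, 178 and 174 CPM in control and 197, 180.0, 220.0 and 154 in RAM siRNA input. The groups overlapped, replicate 4 being the lowest of the RAM siRNA libraries, and the log2 fold change of 0.15 passed the threshold neither without nor with the block (adjusted p = 0.362 and 0.056).

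Srsf5, the SR gene with the highest mean per length, had 718, 659, 690.3 and 694 CPM in control input and 821, 798, 905 and 687 in RAM siRNA input. Replicates 1 to 3 of RAM siRNA lay above all control libraries and replicate 4 lay among them. For Srsf5 the log2 fold change was 0.22 (SE 0.09, adjusted p = 0.143 without and 0.0037 with the block). Srsf6, an SR protein of the larger size class, had 372, 383, 363 and 393 CPM in control and 421, 429, 443 and 413 in RAM siRNA input. Its groups did not overlap. The log2 fold change was 0.17 (SE 0.07, adjusted p = 0.115 without and 0.0040 with the block).

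Tra2a and Tra2b bind GAA-rich enhancers. Tra2a had 216, 183, 198 and 187 CPM in control and 231, 210.2, 251 and 183 in RAM siRNA input, with overlapping groups, and a log2 fold change of 0.16 (adjusted p = 0.344 without and 0.024 with the block). Tra2b had one of -0.02 (SE 0.07). The other 3 SR genes called higher with the block had log2 fold changes of 0.14 for Srsf2 and Srsf11 and 0.12 for Srsf7.

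The SR genes furthest below zero in input moved little. Srsf9 stood at 46.0, 52.0, 43.7 and 52.2 CPM in control and 43.0, 44.0, 42.1 and 58.9 in RAM siRNA input, with the 2 highest values in replicate 4 (log2 fold change -0.05, SE 0.11). Srsf10, which represses splicing when dephosphorylated, stood at 207, 220.0, 237 and 224 CPM and at 197, 219.6, 254 and 193 (-0.04, SE 0.09). Srsf3, which also couples splicing to mRNA export, stood at 419, 414, 397 and 452 CPM and at 398, 407, 402 and 435 (-0.04, SE 0.07). All 3 overlapped between groups, and the sign of Srsf9 and Srsf10 changed when single replicates were left out.

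The direction in input could be set beside the annotated transcripts. Of the 21 genes with a transcript annotated for nonsense-mediated decay, 14 had a log2 fold change above zero (66.7%), and of the 11 without, 1 did (9.09%). The split stood within the hnRNP genes too, where 6 of 10 with such a transcript and 1 of 10 without were above zero. Among all protein-coding genes tested, 50.3% of the 3459 with such a transcript and 49.6% of the 8664 without were above zero. Across the 32 genes the number of such transcripts and the log2 fold change had a Spearman rho of 0.452, and across 12123 protein-coding genes it was 0.0103. Retained-intron transcripts gave a like split: 14 of 24 genes with one and 1 of 8 without were above zero. Among protein-coding genes these shares were 49.3% and 50.6%. For the number of retained-intron transcripts, rho was 0.343 across the 32 genes and -0.00642 across protein-coding genes. The 14 genes above zero were the same in both splits, so the splits are not separate observations. Hnrnpa3, Hnrnpc, Hnrnpm, Hnrnpul1 and Hnrnpul2 had a retained-intron transcript and none for nonsense-mediated decay, and all were below zero. Hnrnpa1 and Srsf9, with the reverse, were below zero too. These are descriptions across genes, which share libraries and are not independent. The counts are per gene and do not show which transcripts changed.

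Genes with ACTATC in a 3′ UTR were known from earlier results of these data to fall in input, and the SR and hnRNP genes were searched for it on the sense strand of annotated transcripts. ACTATC was in a 3′ UTR of 16% of protein-coding genes tested with an annotated 3′ UTR. Of those genes, 15% were called lower in input without a block, against 4.55% of genes without it. As this came from the same data, it is a description and not a new test. Of the 197 genes with the longer TACTATCA, 22.3% were called lower. Among the 32 genes, 4 had ACTATC. Their sites are shown, to set the match beside the change of each gene, with 30 bases of the sense strand from the GENCODE vM21 transcripts (GRCm38) and the match in capitals.
Srsf10, chr4:135867990-135868019, plus strand: aaaacccaataTACTATCAtagaaaagtaa
Hnrnpr, chr4:136343908-136343937, plus strand: ttttatcacctgACTATCAgggaagcgagg
Hnrnpr, chr4:136348366-136348395, plus strand: ctatacagggagACTATCcttcaaatataa
Hnrnpr, chr4:136349987-136350016, plus strand: gttaattggtagACTATCAtgtacagccct
Hnrnpm, chr17:33648026-33648055, minus strand: gagtcaaagccaACTATCtttcctagtccc
Hnrnpd, chr5:99957683-99957712, minus strand: aagactgaacccACTATCtgggcacagtgt

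These 4 genes had log2 fold changes in input of -0.04 for Srsf10, -0.02 for Hnrnpr, -0.12 for Hnrnpm and 0.03 for Hnrnpd, with a median of -0.03. The median of the other 28 was 0.0011. The longest annotated 3′ UTR of Hnrnpr has 19419 bases, and the search took no account of length. Hnrnpul1, the gene that fell furthest, had none of these letters in its annotated 3′ UTRs, of which the longest has 1082 bases.

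Polysome levels are scaled as well, so a fall of polysomal RNA shared by all genes does not show in them. The study reports a lower ratio of polysomes to monosomes after RAM siRNA. In polysomes, no SR or hnRNP gene passed the threshold of edgeR's quasi-likelihood test without a block. The background there was 0.0234% of all genes called lower (3 genes) and 0% called higher. At an unadjusted p under 0.05, 2 of the 32 (6.25%) and 9% of all genes passed. DESeq2 called 1 of the 32 lower, beside 144 of all genes lower and 156 higher. With the replicate block 2 of the 32 were lower and 0 were higher, beside 4.97% and 9.68% of all genes. Both were hnRNP genes.

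Hnrnpul1 was the first of them. It stood at 101, 105, 99.0 and 101 CPM in control polysomes and at 51.2, 64.1, 48.8 and 49.8 in RAM siRNA polysomes. The groups did not overlap, and replicate 2, the library that stood apart, was the highest of the RAM siRNA libraries. The mean was 52.6% of control. The log2 fold change was -0.88 (SE 0.14, adjusted p = 0.069 without the block). With the block it was -0.89 (SE 0.11, adjusted p = 1.1e-04), and without RAM siRNA replicate 2 and with no block it was -0.97 (adjusted p = 0.043).

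Hnrnph2, an X-linked relative of Hnrnph1, was the other. Its level was 98.0, 92.1, 76.1 and 72.7 CPM in control polysomes and 61.0, 85.4, 49.9 and 55.2 in RAM siRNA polysomes. Only replicate 2 of RAM siRNA reached the control range. The log2 fold change with the block was -0.40 (SE 0.12, adjusted p = 0.030), and without the block it was -0.38 (adjusted p = 0.608).

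With the block but without replicate 2, 15 of the 32 genes were called in polysomes, 14 lower and 1 higher, beside 14.3% of all genes lower and 21.3% higher. Hnrnpul1 and Hnrnph2 were among the 14, as were Hnrnpa1, Hnrnpa2b1, Hnrnpab, Hnrnpdl, Hnrnpf, Hnrnph3, Hnrnpk, Hnrnpl, Hnrnpll, Hnrnpm, Hnrnpr and Srsf5. The gene called higher was Srsf9. Leaving out replicate 1, 3 or 4 instead left 1 call, Hnrnpul1. Beside it, 2.07%, 3.19% and 2.4% of all genes were called lower and 4.22%, 6.15% and 4.77% higher.

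The 4 and 4 libraries did not overlap in the lower direction for 5 of the 32 genes, beside 4.38% of all genes, and for none in the higher direction, beside 2.18%. The 5 were Hnrnpul1, Hnrnpa1, Hnrnph3, Hnrnpll and Srsf5. Hnrnpa1 stood at 1015, 866, 861 and 935 CPM in control polysomes and at 673, 729, 595 and 819.8 in RAM siRNA polysomes (log2 fold change -0.34, adjusted p = 0.571 without and 0.070 with the block). Hnrnph3 stood at 57.5, 50.7, 45.5 and 52.8 CPM and at 39.3, 41.3, 35.7 and 43.6 (-0.32, adjusted p = 0.517 without and 0.055 with the block). For both, each RAM siRNA library was under each control library, and neither passed the threshold.

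**Figure D2:**
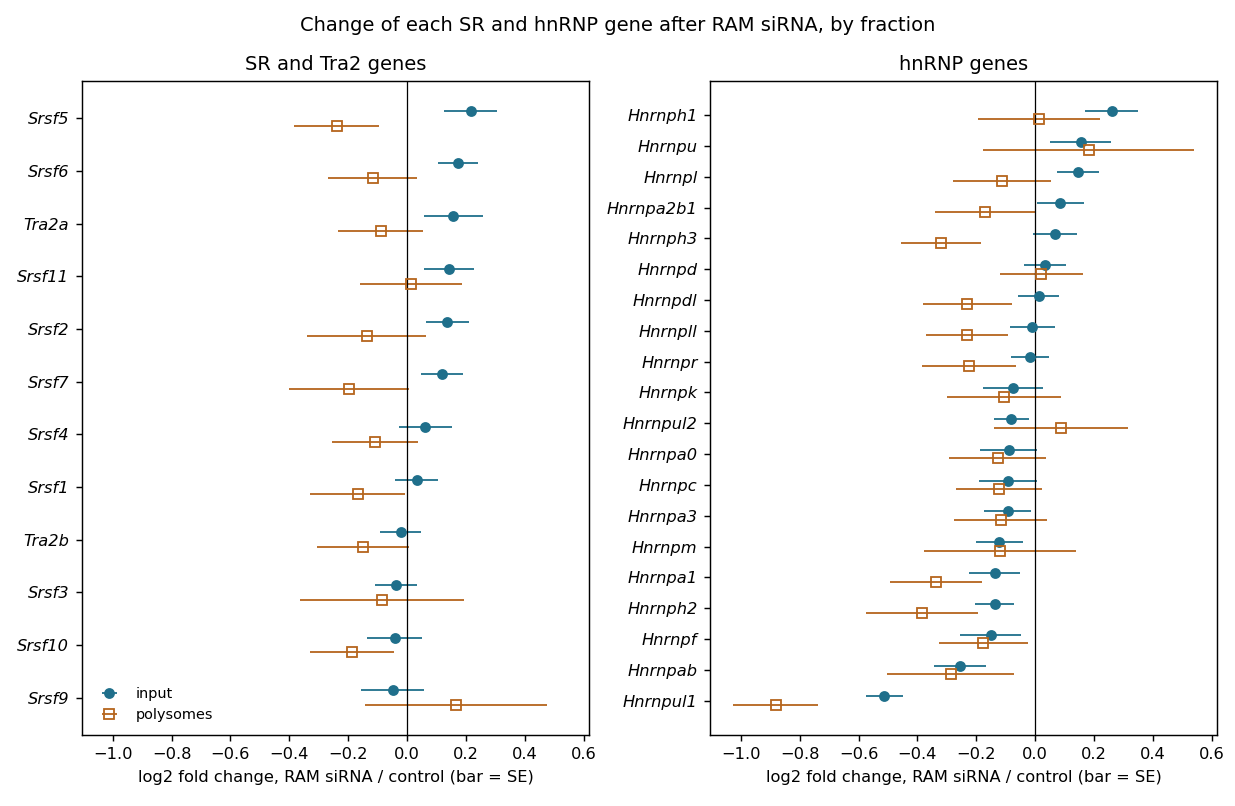
Log2 fold change of RAM siRNA against control (x axis, bar = SE of the edgeR fit without a block) for each of the 32 genes, in input (filled circles) and polysomes (open squares). Genes are ordered by their change in input. Of the 32 polysome values 26 lie below zero, and Hnrnpul1 has the lowest value in both fractions.

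Srsf9 had the smallest p of the genes above zero in polysomes. Its level was 39.1, 41.2, 47.7 and 65.1 CPM in control and 40.1, 31.9, 54.7 and 82.3 in RAM siRNA polysomes. Replicate 4 was the highest in both arms and replicate 2 the lowest with RAM siRNA. The log2 fold change was 0.16 (SE 0.31), and it turned to -0.16 without RAM siRNA replicate 4.

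Over the 32 genes the polysome log2 fold change had a median of -0.13, beside 0.06 over all genes tested. It was below zero for 26 of them, and below the median of all genes for 29. The median was -0.13 in the SR and Tra2 genes and -0.15 in the hnRNP genes. Over the 27 other settings the median of the 32 genes less that of all genes lay between -0.24 and -0.15. The summed level of the 20 hnRNP genes was 6936, 6146, 5747 and 6265 CPM in control polysomes and 5278, 5998, 4428 and 5568 in RAM siRNA polysomes, and the groups overlapped. The summed level of the 13 SR and Tra2 genes was 4024, 3379, 3599 and 4212 CPM and 3387, 2781, 3111 and 4058, which also overlapped. In input the hnRNP sum was 4517 ± 283 CPM in control and 4445 ± 123 in RAM siRNA cells (SD, n = 4 each). The SR and Tra2 sum was 3712 ± 111 and 3983 ± 151 CPM there.

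Polysome loading is the log2 fold change in polysomes minus that in input, so it is relative to other genes. No gene of the 32 and 0% of all genes passed the threshold in either direction in edgeR's quasi-likelihood test on the 16 libraries. At an unadjusted p under 0.05, 3 of the 32 (9.38%) and 100 of all genes (0.781%) passed. With a replicate block within each fraction these were 13 of the 32 (40.6%) and 637 of all genes (4.97%), still with none of the 32 past the threshold after adjustment. DESeq2 called none of the 32. The value was below zero for 30 of the 32, with a median of -0.23, beside 0.0013 over all genes. The median was -0.24 in the SR and Tra2 genes and -0.17 in the hnRNP genes.

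The median of all genes moved between subsets of the libraries, so the 32 genes are given relative to it. Their median less that of all genes was -0.22 from the libraries numbered 1 and 2, and -0.22 from those numbered 3 and 4. Over the 28 other settings it lay between -0.27 and -0.17, with 23 to 30 genes below the median of all genes. Taken by replicate number, the ratio of polysome to input level was lower with RAM siRNA in 4 of 4 numbers for 13 genes. It was lower in 3 for 15, in 2 for 3 and in 1 for 1. These ratios were not set against the median of all genes. The same count was not made over all genes, so it does not show whether the 32 genes stand apart.

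Srsf5 had the smallest p. Its log2 ratio of polysome to input level was -0.74, -0.83, -0.75 and -0.97 in the 4 control cultures and -1.36, -1.21, -1.55 and -1.15 in the RAM siRNA cultures. The 2 sets of cultures did not overlap. The change of loading was -0.50 (SE 0.17, adjusted p = 1.00 by edgeR). With the block within each fraction the adjusted p was 0.423. Its log2 fold change was 0.22 in input and -0.24 in polysomes, neither past the threshold without a block.

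Hnrnph3 and Hnrnpul1 followed, at -0.44 (SE 0.15) and -0.42 (SE 0.15). For Hnrnpul1 the ratio was -0.02, 0.08, 0.02 and -0.07 in control and -0.42, -0.18, -0.60 and -0.48 in RAM siRNA cultures, without overlap. Its scaled level in polysomes fell to 52.6% of control, against 70.2% in input. Neither gene passed the threshold (adjusted p = 1.00 for both by edgeR). The value was above zero for 2 genes, Srsf9 (0.16, SE 0.34) and Hnrnpul2 (0.12, SE 0.26). The ratios of Srsf9 were -0.23, -0.33, 0.12 and 0.32 in control and -0.10, -0.46, 0.37 and 0.48 in RAM siRNA cultures, and they overlapped.

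**Figure D3:**
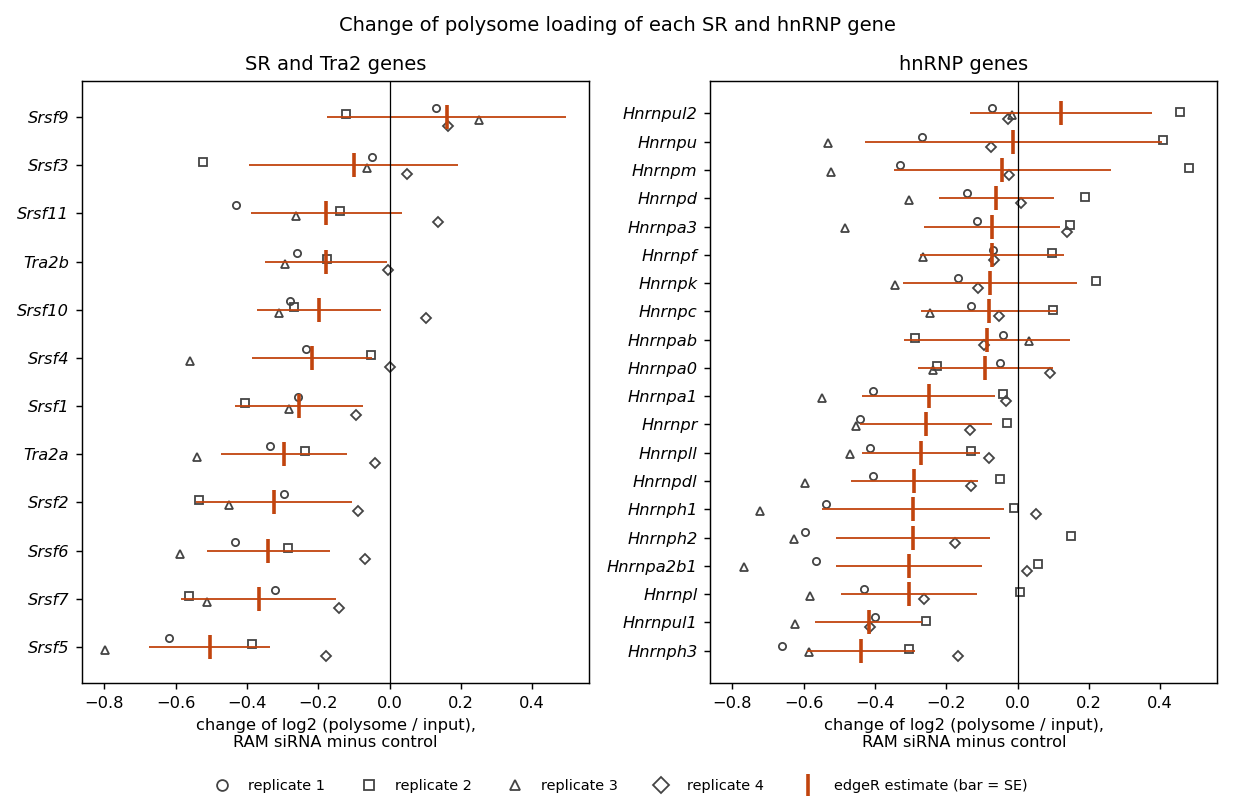
Change of polysome loading of each of the 32 genes, as the log2 ratio of polysome to input level with RAM siRNA less that in control (x axis). Open points are the 4 replicate numbers, and the red mark and bar give the edgeR estimate and its SE. Of the 32 estimates 30 lie below zero, none past the threshold, and replicate 2 lies above zero for several hnRNP genes.

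In control cells, the polysome level was compared with the input level. The scaling centres this comparison near zero over all genes, so a value gives loading relative to other genes. Of the 32 genes, 6 were lower in polysomes and 14 were higher. This was 62.5% of them, and among all genes tested 34.3% were called lower and 33.1% higher. With the replicate block the counts were again 6 and 14, beside 37.2% and 35.1% of all genes. The libraries did not overlap for 6 of the 32 in the lower direction, beside 30.4% of all genes, and for 13 in the higher direction, beside 30.7%. The SR and Tra2 genes had 4 lower and 3 higher, and the hnRNP genes 2 lower and 11 higher. The median log2 ratio was 0.17 over the 32 genes, -0.01 in the SR and Tra2 genes and 0.32 in the hnRNP genes.

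Hnrnpab and Hnrnpc had the highest ratios. Hnrnpab had 962, 870.1, 999.98 and 1219 CPM in control polysomes, against 431, 445, 425 and 487 in input, with no overlap and a log2 ratio of 1.15 (SE 0.14, adjusted p = 2.5e-05). Hnrnpc, which binds uridine runs and packages nascent transcripts, had 544, 476, 459.7 and 494 CPM in polysomes and 214, 219.7, 202 and 254 in input, again with no overlap. Its log2 ratio was 1.11 (SE 0.12, adjusted p = 1.1e-05). Hnrnpf had 447, 389.9, 365 and 382 CPM in polysomes and 197, 186, 181 and 227 in input, and the lowest polysome library was above the highest input library. Its log2 ratio was 0.97 (SE 0.12, adjusted p = 3.2e-05).

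Hnrnpu was lowest by far. It had 60.9, 71.1, 35.0 and 52.1 CPM in control polysomes and 166, 157, 178 and 174 in input, without overlap, and its log2 ratio was -1.66 (SE 0.18, adjusted p = 1.4e-05). Its ratio varied between cultures, from -1.14 to -2.33. Srsf5 had 428, 372, 409.6 and 355 CPM in polysomes, all under its input levels of 659 to 718, and a log2 ratio of -0.86 (SE 0.11, adjusted p = 5.0e-05). Hnrnph1 had 310.0, 266, 203 and 222 CPM in polysomes, under its input levels of 408 to 448, and a log2 ratio of -0.81 (SE 0.14, adjusted p = 3.2e-04).

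**Figure D4:**
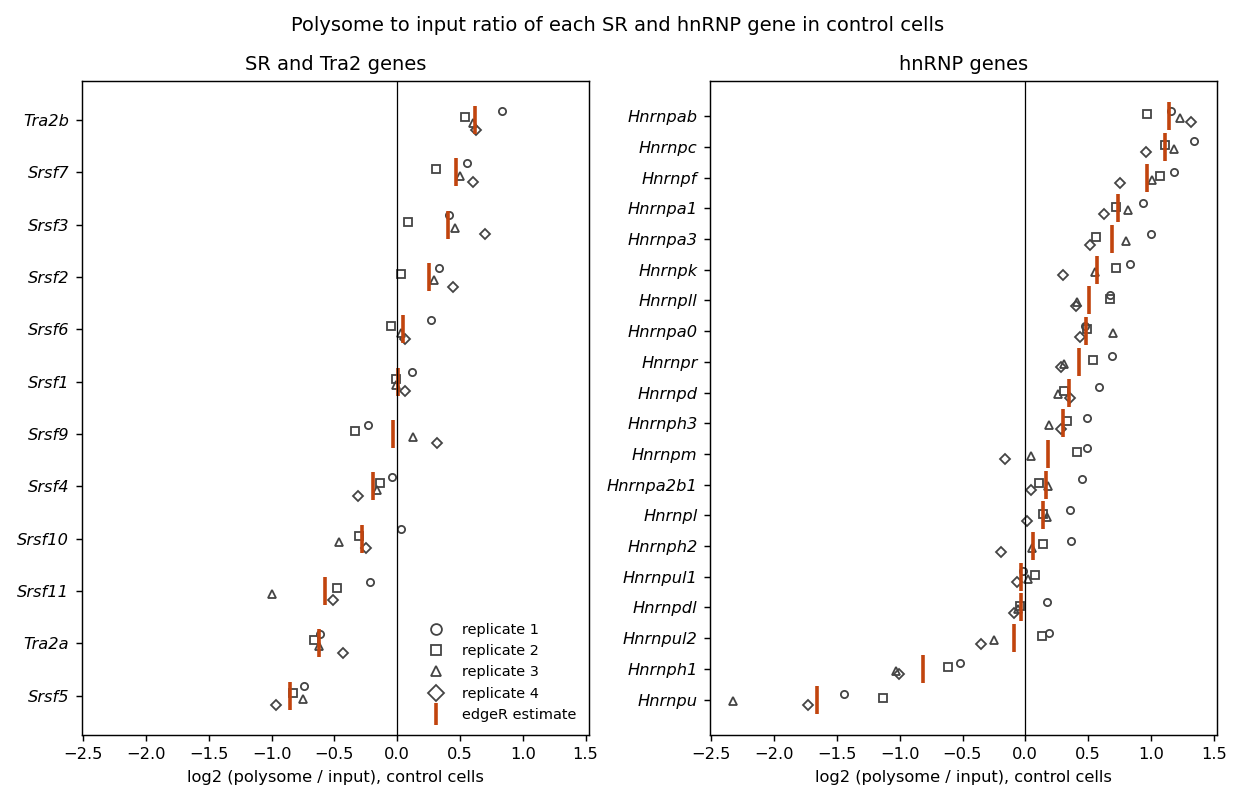
Log2 ratio of polysome to input level in control cells (x axis) for each of the 32 genes. Open points are the 4 cultures and red marks the edgeR estimate. Hnrnpab, Hnrnpc and Hnrnpf lie near 1 and Hnrnpu below -1 in all 4 cultures, and Tra2a and Tra2b lie on opposite sides of zero.

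Close relatives lay on opposite sides. Tra2b had 378, 312, 332 and 374 CPM in polysomes and 212, 215, 218 and 241 in input, a log2 ratio of 0.62 (SE 0.11, adjusted p = 5.5e-04). Tra2a had 141, 115, 129 and 139 CPM in polysomes and 216, 183, 198 and 187 in input, a log2 ratio of -0.62 (SE 0.11, adjusted p = 5.8e-04). Neither pair of groups overlapped. In the F/H genes, Hnrnpf was higher in polysomes, Hnrnph1 was lower, Hnrnph3 was slightly higher (0.30) and Hnrnph2 had a log2 ratio of 0.06 that did not pass the threshold. The differences between paralogues were not tested themselves.

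Of the 7 hnRNP A/B and D genes, 5 were higher: Hnrnpab (1.15), Hnrnpa1 (0.74), Hnrnpa3 (0.69), Hnrnpa0 (0.49) and Hnrnpd (0.35). Hnrnpa2b1 (0.17) and Hnrnpdl (-0.04) did not pass the threshold. Hnrnpk (0.57), Hnrnpll (0.51) and Hnrnpr (0.43) were also higher. Of the SR genes, Srsf7 (0.47) and Srsf3 (0.40), both of the small SR proteins that shuttle to the cytoplasm, were higher, and Srsf11 (-0.58) and Srsf10 (-0.28) were lower. Srsf1, the founding SR protein, had a log2 ratio of 0.01 (SE 0.12), and Srsf2 one of 0.25 (SE 0.13), neither past the threshold. Across the 32 genes, the number of retained-intron or nonsense-mediated decay transcripts in the annotation had a Spearman rho with this ratio of -0.06 and -0.11.

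Other genes of the splicing pathway were described from fixed lists, tested in input without a block. Beside the counts of all these lists, the main fit called 5.94% of all genes lower and 6.95% higher. The block called 19% lower and 20.3% higher. Of the 7 SR protein kinases tested, none passed, and Srpk1, which phosphorylates SR proteins in the cytoplasm, had the smallest p (0.20, adjusted p = 0.058). With the block 3 of the 7 were higher. Of 18 SR-related and carrier genes none passed, Luc7l3 having the smallest p (0.28, adjusted p = 0.055), and with the block 3 were lower and 4 higher. Of 16 other genes counted among the hnRNP class, 1 was lower and none higher. With the block 2 were lower and 4 higher. The gene lower without it was Ptbp3, a paralogue of the polypyrimidine tract-binding protein, at 98.5 ± 3.17 CPM in control input and 69.9 ± 5.22 with RAM siRNA (-0.50, SE 0.07, adjusted p = 0.0011).

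None of 14 U2AF and SF3 genes passed (Sf3b6, -0.21, adjusted p = 0.113), none of 18 U1, U5 and Sm genes (Snrnp70, 0.28, adjusted p = 0.118) and none of 10 nonsense-mediated decay genes (Upf2, -0.21, adjusted p = 0.135). With the block, 3 of the U2AF and SF3 genes were lower and none higher, 6 of the U1, U5 and Sm genes were lower and 3 higher, and 3 of the nonsense-mediated decay genes were lower and 1 higher. The named genes Sf3b6, Snrnp70 and Upf2 were each among them, with adjusted p of 7.5e-04, 2.1e-04 and 0.0051 from edgeR. The tissue-type splicing regulators had 3 of 10 lower and none higher, and with the block 4 lower and 1 higher. Esrp1, an epithelial splicing regulator, fell from 6.30 ± 0.89 to 1.96 ± 0.47 CPM (-1.68, adjusted p = 2.1e-04), and Rbm47 from 15.4 ± 0.98 to 8.88 ± 0.89 CPM (-0.80, adjusted p = 4.9e-04).

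Markers of cell state moved beside these values. Of 9 ESC markers 3 were lower in RAM siRNA input and none higher, with Dppa5a at -0.36 (adjusted p = 0.0070) and Nanog at -0.29 (adjusted p = 0.020). With the block 8 of the 9 were lower, Pou5f1 among them (-0.19, adjusted p = 0.0011), and none higher. The shares of all genes were 5.94% lower and 6.95% higher without the block, and 19% and 20.3% with it. The summed level of the 9 was 4686 to 5029 CPM in control and 3943 to 4517 in RAM siRNA input. Of the 7 fibroblast markers 2 were tested and Pdgfrb was higher (0.52, adjusted p = 0.027). Of the 6 endoderm markers 3 were tested and Gata6 was higher (0.61, adjusted p = 0.020), while Sox7 went the other way (-0.77, adjusted p = 0.057 without and 0.0011 with the block). None of 5 neural markers tested passed, and Pax6 had the smallest p (-0.50, adjusted p = 0.051). With the block Pax6 was lower (adjusted p = 2.9e-04) and Nes was higher (0.43, adjusted p = 3.7e-06). The summed levels in control and RAM siRNA input were 11.99 to 14.2 and 15.0 to 18.1 CPM for fibroblast, 8.2 to 9.8 and 8.2 to 11.2 CPM for endoderm and 74.97 to 85.6 and 81.3 to 94.2 CPM for neural markers. The part of these differences in the values of the SR and hnRNP genes was not tested, and fewer cells of a type cannot be told apart from less RNA per cell.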

How the data were processed

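RNA was sequenced from input and pooled polysome fractions in 16 libraries, 4 per group. The authors aligned paired reads with STAR 2.5.1b to GRCm38 and counted them per gene with HTSeq, and the values are the deposited raw counts. The HTSeq settings and the annotation release are not given in the sources used here. Labels and methods give different transfection conditions, and those of the labels are used.

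Genes that reached 1 CPM in 10 or more of the 16 libraries were kept. Groups were compared with edgeR 4.0.16 in R 4.3.3 (TMM scaling, quasi-likelihood test, Benjamini-Hochberg adjustment over 12805 genes, threshold 0.05). Standard errors are the log2 fold change divided by the square root of F. Polysome loading was the interaction of fraction and siRNA. Levels are TMM-scaled CPM, and ratios per culture used a pseudocount of 0.5 on the log2 scale. Of 46983 gene identifiers, 46488 matched a symbol. Exon lengths, transcript types and 3′ UTR sites came from GENCODE vM21 (GRCm38). Strand-specific counting is not stated, so reads of overlapping genes may be shared: 6 of the 32 genes tested overlap a gene on their own strand and 13 one on the other strand. The fits were also run on simulated counts with planted changes. Those counts had the same spread setting for all genes and no replicate effect, unlike these libraries. They therefore do not show how well the fits do on these data.

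The study describes the experiment, with both arms, as done on 4 separate occasions. Same-numbered libraries deviated together (r = 0.315 to 0.639 in input, 0.541 to 0.897 in polysomes, 0.236 to 0.488 between control fractions). The replicate block pairs them. Calls and SEs printed without mention of the block come from the main fits, which leave this pairing out. In input the main fit called 761 of all genes lower and 890 higher, and the block called 2433 and 2595. The numbers of lower and higher genes that the study reports for input lie closer to those with the block. The labels do not say that a number marks an occasion. Depth was 16647523 to 20147833 counts per library.

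The genes, the other lists and the rule for naming genes were chosen with earlier results of these data known. Library values are given for genes called in input without a block, the 3 largest rises and falls in input per family, the smallest p per direction in polysomes and loading, and the 3 highest and lowest control ratios. Other genes were named after their values were seen. Alternatives were DESeq2 1.42.0, limma-voom 3.58.1, other scalings and filters, the replicate block and leaving out libraries.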

Additional observations from a re-analysis of the deposited data

Results flagged for a closer look

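Within groups of 4 libraries, 6 of 132 gene and group sets (4.55%) held a library far from the other 3, by a gap over the range above Dixon's 95% critical value for 4 samples. Chance gives about 1 in 20 such sets. Srsf9 in RAM siRNA input had 58.9 CPM in replicate 4 against 42.1 to 44.0 in the others (gap over range 0.888). Srsf1 in the same group had 575 CPM in replicate 4 against 538 to 542 (0.876). Srsf12 there had 0.483 CPM in replicate 3 against 0.819 to 0.870 (0.868). Srsf4 in control polysomes had 30.6 CPM in replicate 4 against 36.3 to 37.1 (0.873). Hnrnpl in control input had 364 CPM in replicate 2 against 332 to 337 (0.853). Hnrnpul1 in RAM siRNA polysomes had 64.1 CPM in replicate 2 against 48.8 to 51.2 (0.842).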

How the results depend on the processing

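The count of SR and hnRNP genes called in input (1) was 4 with DESeq2, 2 without a filter on low counts and 1 to 6 when a library was left out. Of all genes, DESeq2 called 7.11% lower and 8.33% higher, and the fit without a filter 3.32% and 3.74%. Leaving out a library gave 3.33% to 8.97% lower and 3.76% to 10.6% higher. The replicate block gave 14, also with RLE scaling, library size alone or limma-voom, and 8 with DESeq2. In that order, 19%, 19.4%, 22.8%, 19% and 12.1% of all genes were called lower and 20.3%, 20.1%, 18.3%, 20.3% and 12.5% higher. With the block and without replicate 1, 2, 3 or 4 the count was 7, 7, 9 and 15. Beside these, 13.3%, 15.1%, 15.9% and 18.7% of all genes were called lower and 14.6%, 16.4%, 17.2% and 20.1% higher. The count in polysomes (0) was 1 with DESeq2, 1 with all 16 libraries in 1 fit and 0 to 1 when a library was left out. Of all 12805 genes, DESeq2 called 144 lower and 156 higher in polysomes, and the fit of all 16 libraries 249 and 204. Leaving out a polysome library gave 0% to 0.133% of all genes lower and 0% to 0.242% higher. The block gave 2 in polysomes, 3 with RLE scaling, 4 with library size alone, 4 with DESeq2 and 2 with limma-voom. In that order, 4.97%, 5.67%, 6.84%, 4.81% and 4.92% of all genes were lower and 9.68%, 9.62%, 7.43%, 7.59% and 9.55% higher. With the block and without replicate 1, 2, 3 or 4 the count was 1, 15, 1 and 1. Beside these, 2.07%, 14.3%, 3.19% and 2.4% of all genes were lower and 4.22%, 21.3%, 6.15% and 4.77% higher. The block combined with another choice was added after seeing the data. The median control ratio of polysome to input was 0.31 without a filter (all genes -0.18) and 0.29 with filterByExpr (all genes 0.00084).

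Srsf10 in input turned to 0.011 without RAM siRNA replicate 4 and to 0.0087 with the block and without replicate 4. Srsf9 in input turned to 0.0075 with the block and without replicate 2. Srsf9 in polysomes turned to -0.13 with the libraries numbered 1 and 2 alone and to -0.023 with the block and without replicate 4. When a library was left out it was -0.16 to 0.35, and its loading was -0.15 to 0.35, both lowest without RAM siRNA polysome replicate 4. The cause was not tested. None of the 32 genes was called in loading under any setting run, and control calls numbered 14 to 21. The 14 came from the libraries numbered 3 and 4 alone, beside 29.3% of all genes lower and 28.3% higher. The 21 came from DESeq2, beside 33.9% and 34.6%.

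Counts per gene do not separate transcripts, and 4 libraries per group and the spread of the polysome libraries limit what can be called there.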
